A study of Sus scrofa with 150 samples.

Results

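The livers of 150 slaughtered pigs of the commercial cross Pix(DLxDE) were profiled on the Affymetrix Porcine Genome Array, with a single array for each animal. The interferon-active livers were chosen by measured values: each liver was ranked by the mean log2 level of 5 probe sets for RSAD2, IFIT1, IFIT3, ISG15 and MX1, and the 10 highest livers of the 150 were compared with the other 140. No pig was labelled as treated, infected or ill, all 150 shared a single label group, and the groups were therefore made from measured values and are not the study's own. The labels gave 2 traits for each pig, fat area on the back muscle and drip loss of that muscle, and a title number whose meaning was not given. Breeding family, sex, slaughter day and array batch were not used here because the labels did not carry them. Every level below is a log2 probe set value, and every difference is the mean of the 10 interferon-active livers minus the mean of the other 140.

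Interferons are secreted proteins that cells release when their sensors meet viral or other foreign nucleic acid. They bind receptors on neighbouring cells, activate STAT and IRF transcription factors there, and switch on a large set of interferon-stimulated genes, whose products block viral replication, tag proteins with the ubiquitin-like ISG15, and raise antigen presentation. In the liver, hepatocytes, Kupffer cells (the resident macrophages) and endothelial cells all respond to interferon. The 5 genes that ranked the livers are standard members of this response: RSAD2 encodes viperin, which makes a chain-terminating nucleotide, the IFIT proteins bind foreign RNA, and MX1 is a dynamin-like antiviral GTPase.

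The 5-gene mean was 9.09 at the lowest, 10.34 at the median and 13.21 at the highest of the interferon-active livers, against 6.99, 7.85 and 9.08 in the other livers. The 10 are numbered here from liver 1, with the highest mean, to liver 10, and the next livers below them are livers 11 and 12. The threshold fell inside a continuous run of values: liver 10 stood just inside it at 9.09, and livers 11 and 12 stood just outside it at 9.08 and 9.05. The upper end was spread much more widely, with livers 1 and 2 at 13.21 and 12.78.

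These 5 probe sets chose the livers, so their levels are a description and carry no test. RSAD2 averaged 12.73 ± 1.87 in the interferon-active livers and 8.71 ± 0.396 in the other livers (SD, n = 10 and 140), a difference of 4.02. MX1 ran from 9.67 to 13.07, with a median of 11.03, in the interferon-active livers, against 6.15 to 9.55, with a median of 7.96, in the other livers. For RSAD2 and MX1 every interferon-active liver lay above the highest of the other 140. ISG15 differed by 3.46 and IFIT3 by 2.90, and for these 6 and 8 of the 10 livers lay above the highest other liver.

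IFIT1 was the least uniform of the 5. Its ranking probe set differed by 1.17, and only 3 interferon-active livers, livers 2, 1 and 3, exceeded the highest other liver, at 10.92, 10.84 and 10.51 against 8.46. The remaining IFIT1 probe sets on the array, which took no part in the ranking, differed by 3.08 and 2.97, and 8 of the 10 livers exceeded the highest other liver on each. Liver 4 read 7.44 on the ranking probe set but 9.76 and 9.26 on the other IFIT1 probe sets. The array's 3 RSAD2 control probe sets, at the 3 prime end, the middle and the 5 prime end of the transcript, differed by 4.33, 3.34 and 0.731.

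**Figure D1:**
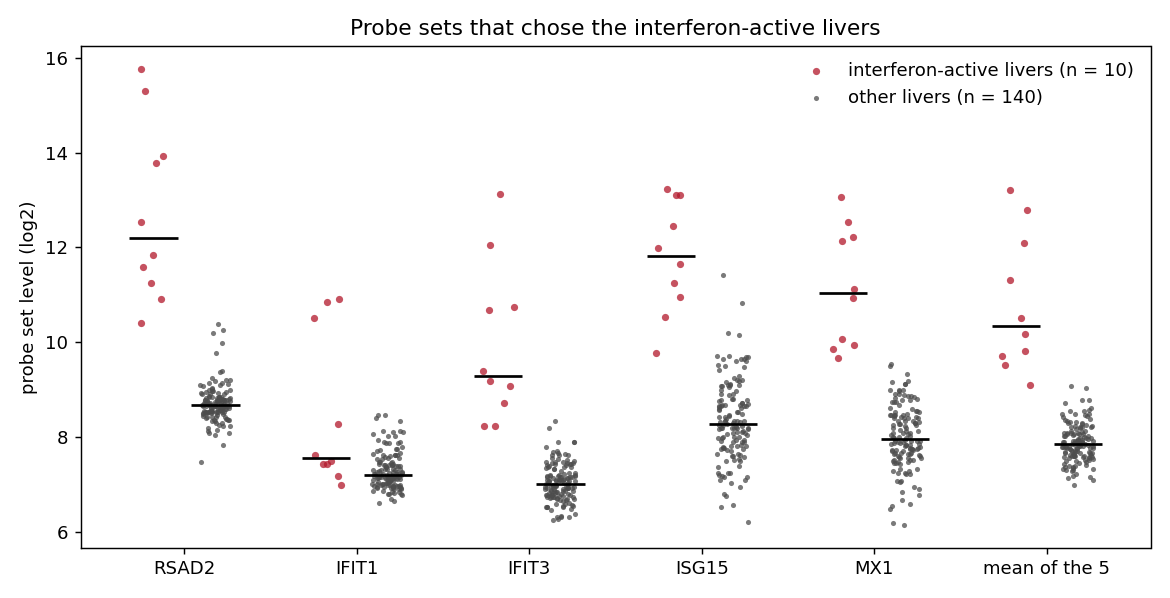
Log2 levels (vertical axis) of the 5 ranking probe sets and their mean, with a point for each liver and a black bar at the median of each group, interferon-active livers (n = 10) left of the other livers (n = 140). RSAD2 and MX1 show no overlap between the groups, while only 3 interferon-active livers exceed the highest other liver for IFIT1.

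Across the 23994 remaining probe sets, 425 were higher (1.77% of those tested) and 154 were lower (0.642%), 2.41% in either direction, in the interferon-active livers at a Benjamini-Hochberg adjusted p under 0.05, by limma's moderated test. The livers were picked for high interferon genes, so a transcript that follows those genes had to differ, and its adjusted p describes how closely it does so. Counted once per gene, by the probe set with the smallest p, 234 of 6760 named genes were higher (3.46%) and 63 were lower (0.932%), against a median difference of -0.01 over all probe sets. The differences were larger upward: 78 higher probe sets differed by more than 1 on the log2 scale, and 0 of the 154 lower probe sets did so downward.

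Liver 1 carried a large part of these counts. Its array had the lowest median correlation with the other arrays of the whole series (0.928), the only interferon-active array among the 13 that stood apart, and the GAPDH 3 prime to 5 prime difference was 1.44, the highest of the 10 (the other 140 ran from 0.40 to 1.75). Without this liver 0.967% of probe sets were higher and 25 probe sets (0.104%) were lower. Leaving out each of the 10 livers in turn, 18 probe sets were lower every time. Counts of gene lists below are therefore given with and without this liver. With all 10 livers, the shares to set beside them are 3.46% higher and 0.932% lower over all named genes. Levels of liver secretory genes, a check of the labelled tissue, were high in both groups: albumin averaged 13.97 in the interferon-active livers and 13.93 in the other livers, and transthyretin and APOA1 averaged 13.54 and 13.84 in each group.

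Most antiviral effectors were higher. Of 16 measured members besides the ranking genes, 13 were higher and 0 lower (3.46% and 0.932% over all named genes), with a median difference of 1.43, and the same count of 13 was reached without liver 1 (median 1.24). OAS1, which makes the 2-5A signal that activates the RNA-degrading RNase L, had the largest difference of any named gene besides the ranking genes. It ran from 8.65 to 14.05, with a median of 10.89, in the interferon-active livers, against 4.71 to 10.08, with a median of 7.62, in the other livers, a difference of 3.39 ± 0.32 (SE; limma adjusted p = 4.7e-17). Of the 10 livers, 6 lay above the highest other liver, and the groups overlapped.

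ISG20, an exonuclease that degrades viral RNA, spanned 5.46 to 10.93 (median 7.26) in the interferon-active livers and 4.09 to 7.42 (median 5.30) in the other livers, and differed by 2.20 ± 0.19. IFIT2, an RNA-binding relative of the ranking genes IFIT1 and IFIT3, differed by 2.17 ± 0.16, with 6 of 10 livers above the highest other. These high values sat mainly in livers 1, 2 and 3 for ISG20, at 10.93, 9.60 and 8.75, whereas liver 8 read 5.46, within the range of the other livers. PARP12 and PARP9, ADP-ribosyltransferases of the interferon response, differed by 1.96 ± 0.14 and 1.68 ± 0.12, and each placed 6 of 10 livers above the highest other.

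Of the remaining effectors, IFI44L differed by 1.79, XAF1 (a pro-apoptotic antagonist of XIAP) by 1.71 and EIF2AK2 (the kinase PKR, which halts translation on double-stranded RNA) by 1.61. PLSCR1, GBP1 and GBP2 differed by 1.24, 1.1 and 1.09, and GBP1 and GBP2 had 0 interferon-active livers above the highest other. The GBP proteins are large GTPases that attack the vacuoles of intracellular microbes. MX2, the close relative of MX1, differed by 0.84 on the probe set with the smallest p and by -0.13 on its other probe set, and the mitochondrial exonuclease PNPT1 differed by 0.81. ZC3HAV1 (0.42), APOBEC3B (0.21) and SAMHD1 (-0.11) did not pass the test.

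USP18, the protease that removes ISG15 from proteins and damps the type I interferon receptor, was the measured gene of the ISG15 conjugation list besides ISG15. It ran from 7.96 to 12.66, with a median of 9.74, in the interferon-active livers and from 6.07 to 9.21, with a median of 7.22, in the other livers. The difference was 2.70 ± 0.21 (limma adjusted p = 1.0e-22), and 7 of 10 livers lay above the highest other.

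Sensors of foreign nucleic acid split into strongly raised and flat genes. Of 7 measured, 3 were higher and 0 lower, with and without liver 1. ZBP1, which senses left-handed Z-form nucleic acid, had the smallest p of all named genes: it spanned 5.41 to 11.30 (median 7.95) in the interferon-active livers and 4.71 to 7.37 (median 5.55) in the other livers, a difference of 2.80 ± 0.18 (limma adjusted p = 4.1e-30). Liver 10 was the lowest of the 10 and read below the mean of the other livers. DDX58, which encodes the RNA sensor RIG-I, differed by 2.26 ± 0.17, and both of its probe sets were higher.

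DDX60, a helicase described as a cofactor of RIG-I, differed by 1.21 ± 0.16, but its values fell into separate sets. The 4 livers with the highest 5-gene mean, livers 1, 2, 3 and 4, read 10.07, 9.44, 8.50 and 8.27, above the highest other liver at 6.64. The other 6 interferon-active livers lay between 6.04 and 6.38, around the median of 6.15 in the other livers. The adaptors MYD88 and MAVS differed by 0.21 and -0.04, and the endosomal receptors TLR8 and TLR9 by 0.09 and 0.00, and none of these passed the test.

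Of 17 measured receptors and signalling genes, 5 were higher and 0 lower, with a median difference of 0.11, and 4 were higher without liver 1. IRF7, the factor that amplifies type I interferon production, ran from 6.35 to 10.97 (median 7.15) in the interferon-active livers and from 4.89 to 6.77 (median 5.71) in the other livers. It differed by 1.89 ± 0.15 (limma adjusted p = 3.3e-23). IRF9 and STAT2, the partners that carry the type I signal to DNA, differed by 1.13 ± 0.11 and 0.55 ± 0.11, and IRF1 by 0.56 ± 0.12. SOCS1, a feedback inhibitor of JAK kinases, differed by 0.65, with liver 1 at 8.92 against 7.77 in the next liver, and its difference of 0.45 without that liver did not pass the test (limma adjusted p = 0.33).

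The transcripts of the interferons themselves did not show a matching difference. Of 4 measured, 0 were called in either direction (3.46% and 0.932% of genes were called higher and lower). IFNB1 lay at 4.09 to 4.75 in the interferon-active livers and 4.09 to 4.65 in the other livers, at or near the lowest value of the arrays. IFNA1 differed by -0.04 ± 0.06 and IFNG by -0.05 ± 0.12. These livers were sampled once, at slaughter, and for IFNB1 values this close to the array's lowest level could hide a change.

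**Figure D2:**
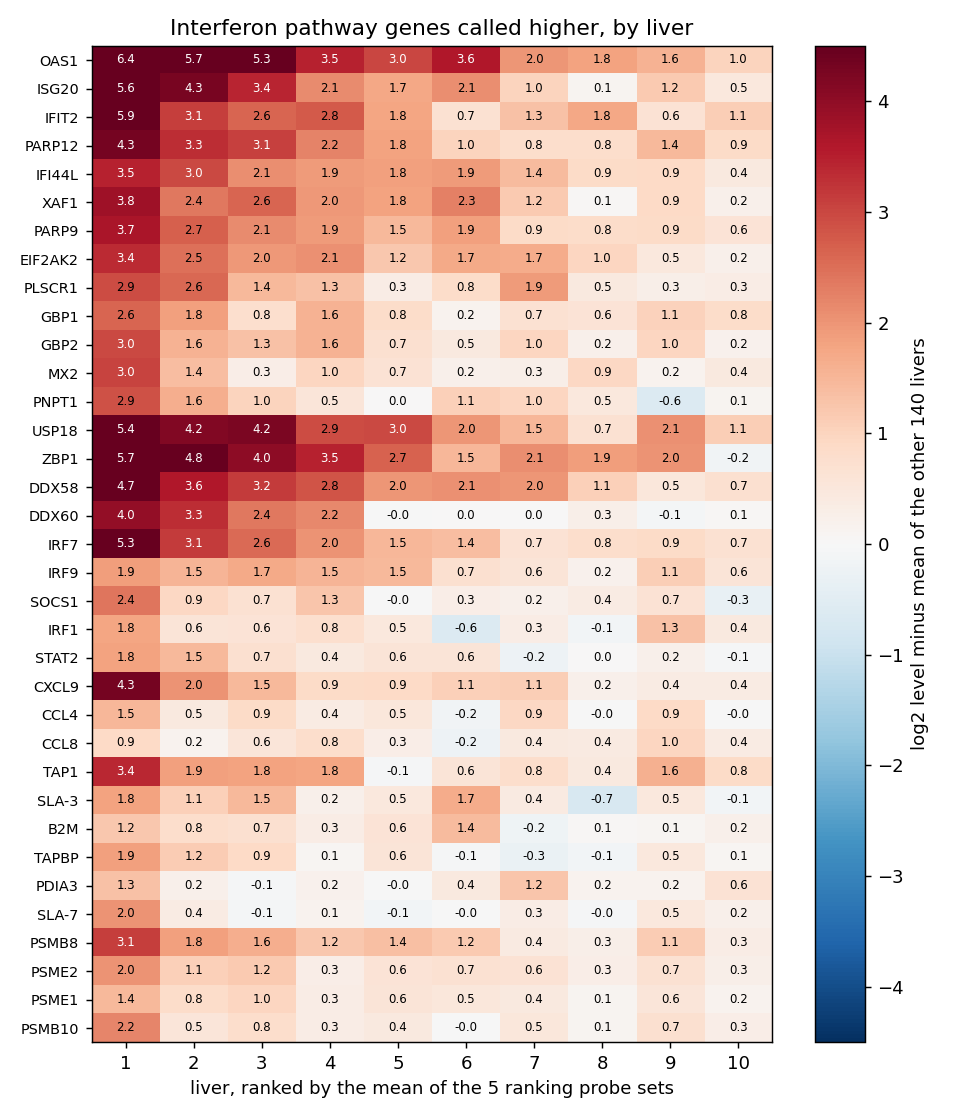
Level of each called interferon pathway gene in each of the 10 interferon-active livers minus the mean of the other 140 (log2, colour and printed value), with genes down the page by list and livers from the highest 5-gene mean at the left. OAS1, USP18 and ZBP1 lie far above the other livers in most columns, and DDX60 does so in the 4 left columns.

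How far the response reached differed widely among the 10. Of 35 interferon pathway genes called higher, liver 1 lay above the highest of the other 140 livers on 28, liver 2 on 20, liver 4 on 16 and liver 3 on 15. Livers 5 and 6 did so on 12 and 10, livers 7, 9 and 8 on 6, 5 and 4, and liver 10 on 0. The 35 genes were called in these same 10 livers, some of them only with liver 1 included. These counts follow in part from that choice and are a description without a test. Averaged over the 35 genes, liver 1 stood 3.17 above the mean of the other livers and liver 10 stood 0.388 above it. Liver 11, just outside the 10, stood 0.638 above that mean and liver 12 stood 0.419 above it, so the boundary cut through livers of similar level.

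Interferon-induced chemokines were higher for 3 of 7 measured genes and lower for 0, with a median difference of 0.46, and 2 were higher without liver 1. CXCL9, which draws CXCR3-bearing T and NK cells, ran from 8.17 to 12.24 (median 8.91) in the interferon-active livers and from 6.91 to 9.73 (median 7.86) in the other livers, a difference of 1.27 ± 0.18. All 10 livers were above the median of the others, and 2 were above the highest. CCL4 and CCL8, attractants of monocytes and lymphocytes, differed by 0.53 and 0.47, and CCL4 lost its call without liver 1 (limma adjusted p = 0.068).

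Transcripts for several steps of antigen presentation through MHC class I were higher, fewer of them without liver 1. The immunoproteasome, the form of the proteasome that cuts peptides for class I, was higher for 4 of 4 measured genes (median 0.69), and for 3 without liver 1. PSMB8, a catalytic subunit, ran from 7.93 to 10.76 (median 8.85) in the interferon-active livers and from 6.59 to 9.83 (median 7.61) in the other livers, a difference of 1.25 ± 0.16. The activator subunits PSME2 and PSME1 differed by 0.78 and 0.60. PSMB10 differed by 0.59, and by 0.41 without liver 1 (limma adjusted p = 0.11).

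Of 10 measured genes of class I and peptide loading, 6 were higher and 0 lower, but only TAP1 and B2M were higher without liver 1. TAP1, a subunit of the transporter that carries peptides to class I molecules, differed by 1.30 ± 0.16 on the probe set with the smallest p, with liver 1 as the only liver above the highest other, and by 0.11 and -0.05 on its other probe sets. B2M, the light chain of class I, differed by 0.53 there, and 2 of its 9 probe sets were higher. SLA-3 and SLA-7, pig class I heavy chains, differed by 0.68 and 0.33, and the loading factors TAPBP and PDIA3 by 0.46 and 0.43. Class I genes are highly similar and variable between pigs, so a probe set can read several of them, and their values are uncertain.

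Class II presentation was higher for 2 of 10 measured genes, SLA-DRA (0.57) and SLA-DMB (0.46), and for 0 without liver 1, although the median difference of the list was 0.31 in both cases. The constitutive proteasome also moved: 6 of 24 measured subunits were higher and 0 lower, and 4 without liver 1. PSMA6 and PSMA2, core subunits, differed by 0.55 ± 0.08 and 0.54 ± 0.09, and PSMB4 by 0.35 ± 0.07. Its median difference of 0.10 shows that most subunits lay near the other livers.

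**Figure D3:**
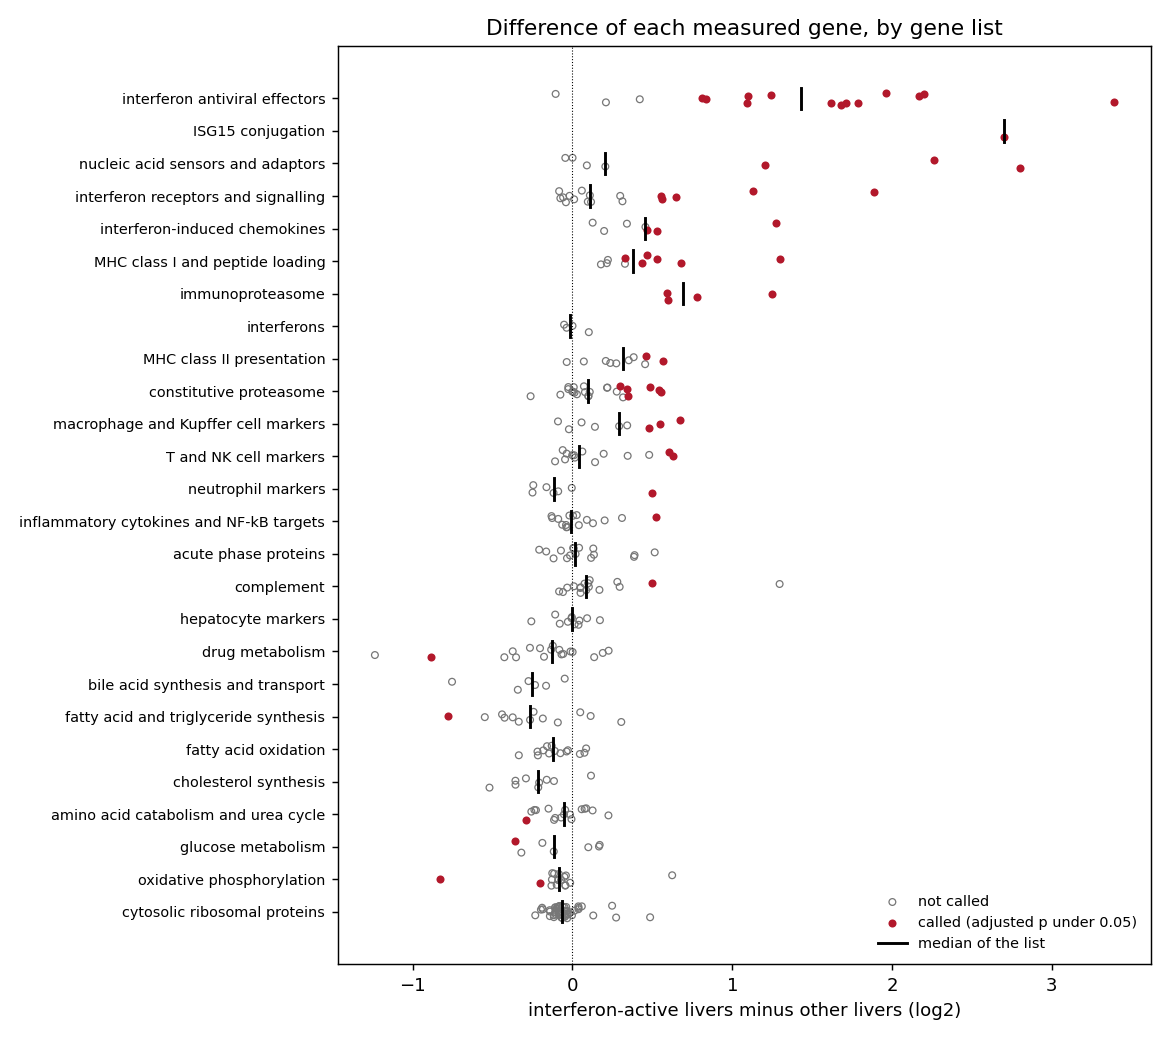
Difference between interferon-active and other livers (log2, horizontal axis) for each measured gene of 26 gene lists, filled where called at an adjusted p under 0.05, with a bar at the median of each list. Antiviral effectors lie mostly right of 0 with a median of 1.43, while hepatocyte markers, acute phase proteins and ribosomal proteins cluster around 0.

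Few measured genes of inflammation outside the interferon pathway were called. Of 16 inflammatory cytokines and NF-kB targets, 1 was higher and 0 lower, near the 3.46% and 0.932% over all named genes, with a median difference of -0.01. It was IL10, an anti-inflammatory cytokine, at 5.25 to 6.27 in the interferon-active livers and 4.09 to 6.19 in the other livers (difference 0.53 ± 0.10, and 0.55 without liver 1). Of 16 acute phase proteins, which the liver secretes in response to IL-6, 0 were called, also near those shares, with a median difference of 0.01. Haptoglobin (HP) differed by 0.04 and CRP by 0.39, neither passing the test. Of 17 complement genes, C1QA was higher by 0.50, and 0 were called without liver 1. The list's median difference was 0.09, with 14 of the 17 above 0, and its largest difference, 1.30, did not pass. Among 10 cell death genes, CASP1 (1.00), DAXX (0.75) and BID (0.35) were higher, and BID lost its call without that liver. CASP1 is the protease that matures IL-1 beta, and DAXX is a nuclear histone chaperone.

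Markers of immune cells were measured alongside, against 3.46% higher and 0.932% lower over all named genes. In bulk liver, more cells of a type and more RNA per cell cannot be told apart. Of 9 macrophage and Kupffer cell markers, 3 were higher, with and without liver 1: SIGLEC1 (0.67 ± 0.12), itself an interferon-stimulated gene, FCER1G (0.55 ± 0.13) and AIF1 (0.48 ± 0.11). The other 6 did not pass: VSIG4 and TYROBP differed by 0.34 and 0.29, CD163, CD5L, CD14 and MARCO by 0.14, 0.06, -0.02 and -0.09. The median difference of the list was 0.29, with 7 of 9 above 0. The mean level of the 9 markers ran from 7.55 to 8.30 in the interferon-active livers and from 7.10 to 8.46 in the other livers, so the groups overlapped. With the mean of the markers other than SIGLEC1 as a covariate, 396 probe sets were higher and 203 lower, and 18 of the 71 named called genes lost their call. Among these 18 were AIF1 and FCER1G, themselves part of the covariate, and SOCS1, CCL4, CCL8, PSMB10, SLA-3, PDIA3, SLA-DRA and SLA-DMB.

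Of 14 T and NK cell markers, CD2 (0.63 ± 0.08) and the T cell receptor chain CD247 (0.60 ± 0.13) were higher, and CD2 alone without liver 1. Over all named genes, 3.46% were higher and 0.932% lower. Of the 4 CD247 probe sets, 2 were higher and the others differed by 0.04 and -0.02. CD3D, CD3E, CD3G and CD8A differed by 0.01, -0.05, -0.04 and 0.06. The mean of the 14 ran from 5.80 to 6.37 in the interferon-active livers and from 5.50 to 6.50 in the other livers. Of 4 B and plasma cell markers, the adaptor BLNK was higher (0.71 ± 0.10) while CD79B and JCHAIN differed by -0.06 and -0.02. Of 7 neutrophil markers, FCGR3A was higher (0.50), the other 6 had differences below 0 that did not pass, and the list's median difference was -0.12. Of 8 endothelial markers LYVE1 was higher (0.58, list median 0.03), and neither it nor FCGR3A was called without liver 1. Of 11 hepatocyte markers and 2 markers of plasmacytoid dendritic cells, 0 were called. The part of these cells in the results above was not tested. The macrophage covariate cannot decide it, because AIF1 and FCER1G, themselves called higher, are part of that covariate.

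Other transcripts with large differences lay outside these lists. PLAC8 spanned 8.32 to 12.16 in the interferon-active livers and 5.89 to 9.92 in the other livers, a difference of 2.21 ± 0.22. LGALS9, which encodes the glycan-binding galectin-9, differed by 1.78 ± 0.14, with 7 of 10 livers above the highest other. ISG12(A), a small mitochondrial protein gene of the interferon response, differed by 1.73 ± 0.29, and the other livers themselves ran from 8.70 to 13.39, so only 2 of the 10 exceeded them. The gene annotated only as LOC733579 differed by 1.92 ± 0.15. A probe set with no gene name in the annotation used was the only probe set of the array, the ranking ones aside, on which all 10 livers exceeded the highest of the other 140 (0.00417% of probe sets). It ran from 8.68 to 12.36 in the interferon-active livers, against 6.91 to 8.62 in the other livers. A further unnamed probe set differed by 2.97.

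The same transcripts were then examined within the 140 other livers alone, whose 5-gene means ran only from 6.99 to 9.08. Each probe set was regressed on the 5-gene mean of the liver, and 78 had a positive slope (0.325%) and 3 a negative one (0.0125%) at an adjusted p under 0.05. These 140 livers also serve as the comparison group above, so the slopes are not a separate check of those differences. The 5-gene mean is also the value that ranked the livers. A transcript that follows the ranking genes therefore had to have a slope, and its adjusted p describes how closely it does so. USP18 had a slope of 1.11 ± 0.07 per unit of the 5-gene mean, beside a difference of 2.70 for the 10 livers. ISG12(A) had a slope of 1.62 ± 0.13 and OAS1 one of 0.85 ± 0.18.

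By Pearson's r over the 140 livers, given as a description of likeness, USP18 was the named gene most like the 5-gene mean (0.799), followed among named genes by ISG12(A) (0.730), PARP12 (0.704), LGALS9 (0.698) and PARP9 (0.690). Antiviral effectors had 8 called positive slopes among 16, the immunoproteasome 3 among 4 (PSMB8, PSME1 and PSME2), and class I 2 among 10 (TAP1 and B2M). Chemokines had 0 among 7. Over all probe sets 0.325% had a called positive slope, and the chemokine count lies near that share. The share over named genes was not counted. CXCL9, DDX60, MX2 and STAT2 were higher in the 10 livers but had slopes of 0.32, 0.13, 0.10 and 0.12 that did not pass. Of the 3 negative slopes only 1 had a gene name: MFSD2A, a lysophospholipid transporter, had a slope of -1.24 ± 0.30 (limma adjusted p = 0.020) and differed by 0.31 in the 10 livers, which did not pass.

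The 63 genes that were lower had their lowest values mainly in liver 1 and, next, in liver 6. Liver 1 lay below the lowest of the other 140 livers on 43 of the 63, liver 6 on 13, liver 2 on 4, and each of the remaining 7 on 0 to 3. The median difference of the 63 genes was -1.21 in liver 1 and -0.60 in liver 6, against -0.04 in liver 5. The 63 genes were called lower in the same interferon-active livers, liver 1 included. These counts and medians follow in part from that choice and are a description without a test. No share over all probe sets stands beside them.

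EIF4EBP2 and DESI2 were the genes among the 10 largest called falls that remained lower without liver 1. EIF4EBP2, a repressor of cap-dependent translation under mTOR control, ran from 6.44 to 8.96 (median 8.19) in the interferon-active livers and from 7.11 to 9.86 (median 8.88) in the other livers. It differed by -0.93 ± 0.15 (limma adjusted p = 2.2e-06), and by -0.77 without liver 1 (limma adjusted p = 0.00046), with 3 of its 5 probe sets lower. DESI2, a protein deubiquitinase, differed by -0.73 ± 0.11 and by -0.62 without that liver (limma adjusted p = 6.4e-05). On this probe set it was below the median of the other livers in 9 of 10 livers and below the lowest in 3. Of the 4 DESI2 probe sets, 2 were lower, and the others differed by -0.24 and -0.18, which did not pass the test.

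Several metabolic genes were below the median of the other livers in most interferon-active livers, with the lowest values in few of them. FMO5 and NDUFA1 were below it in 7 of 10 livers, PHGDH and ELOVL6 in 8 of 10 and HSD3B1 in 9 of 10. These genes, like DESI2, were named because they were called lower in the same 10 livers. Such counts follow in part from that choice, carry no test, and have no share over all probe sets beside them. FMO5, a flavin monooxygenase, read 5.73 in liver 1 and 8.70 to 10.61 in the 9 remaining interferon-active livers, against 8.18 to 11.42 in the other livers, and its difference of -0.88 became -0.49 without liver 1 (limma adjusted p = 0.38). NDUFA1, a subunit of respiratory complex I, read 6.70, 8.55 and 8.65 in livers 1, 2 and 6 on the probe set with the smallest p. It lay near the median of the others in most remaining livers (difference -0.83, and -0.49 without liver 1). The other NDUFA1 probe set differed by -0.10, which did not pass the test. PHGDH, the entry enzyme of serine synthesis, was low in livers 1, 2 and 6 at 6.01, 7.53 and 7.75 and differed by -0.70. HSD3B1, a steroid dehydrogenase, differed by -0.63, and by -0.30 without liver 1 (limma adjusted p = 0.46). Its other probe set differed by -0.28, which did not pass.

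ELOVL6, which elongates saturated fatty acids, differed by -0.78, and CLEC3B, which encodes tetranectin, by -0.79, with liver 8 its lowest liver at 7.81. The other ELOVL6 probe sets differed by -0.74, -0.69 and -0.53, which did not pass the test. EFR3A and MTURN differed by -0.54 and -0.53. None of these 4 was called without liver 1. By list, 1 of 18 drug metabolism genes (FMO5), 1 of 13 genes of fatty acid and triglyceride synthesis (ELOVL6), 1 of 17 of amino acid catabolism and the urea cycle (ASS1, -0.29), 1 of 7 of glucose metabolism (the glycogen phosphorylase PYGL, -0.36) and 2 of 17 of oxidative phosphorylation (NDUFA1 and SDHA, -0.20) were lower, against 0.932% of all named genes, and counts of 1 or 2 say little about a list. Their counts were 0 in every case without liver 1. The other probe set of SDHA differed by -0.09 and did not pass the test. The median differences were -0.13, -0.27, -0.05, -0.12 and -0.09 in that order, against -0.01 over all probe sets.

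**Figure D4:**
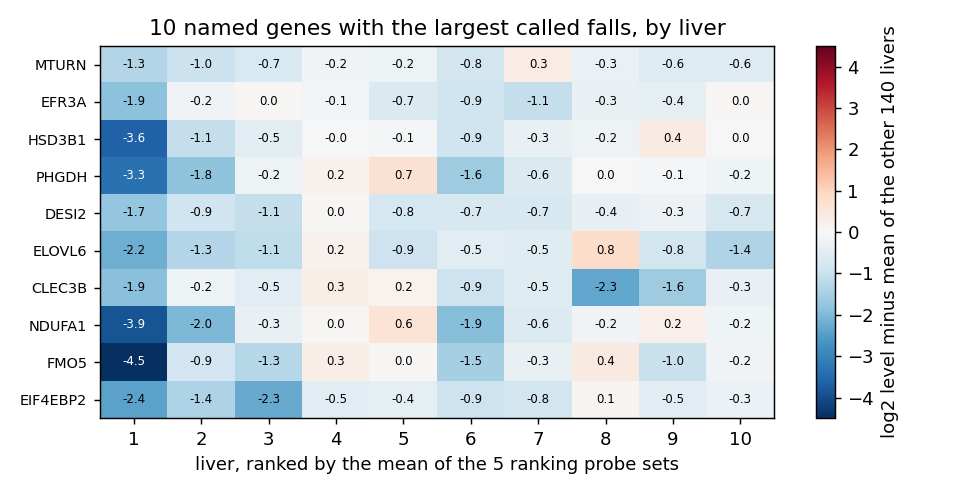
Level of the 10 named genes with the largest falls among those called lower in each interferon-active liver minus the mean of the other 140 (log2, colour and printed value), with livers from the highest 5-gene mean at the left. The liver 1 column is low throughout, livers 2 and 6 are low for PHGDH and NDUFA1, and EIF4EBP2 and DESI2 are low across more of the livers.

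The 2 traits took no part in the ranking. Fat area was 10.9 cm2 at the lowest, 13.0 cm2 at the median and 21.4 cm2 at the highest in pigs with interferon-active livers, against 8.1, 14.95 and 26.7 cm2 in the others. The means were 14.1 ± 3.57 and 15.3 ± 3.22 cm2 (SD, n = 10 and 140), a difference of -1.21 cm2 (two-sided permutation p = 0.25, adjusted p = 0.56 over 8 pig and array measures). Drip loss averaged 5.05 ± 2.64% in pigs with interferon-active livers and 5.57 ± 2.09% in the others (permutation p = 0.45, adjusted p = 0.61). Neither trait differed by more than the spread between pigs. With 10 livers a modest difference could have gone unseen.

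Of the array measures, the actin 3 prime to 5 prime difference was 2.57 ± 0.404 in interferon-active livers and 2.88 ± 0.449 in the others (permutation p = 0.038, adjusted p = 0.30), and the Y-linked probe sets averaged 5.15 ± 0.602 and 4.94 ± 0.592 (permutation p = 0.28, adjusted p = 0.56). With the GAPDH and actin differences as covariates, 467 probe sets were higher and 0.892% of probe sets were lower.

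Title numbers were compared as a possible order of the pigs. They averaged 493 in pigs with interferon-active livers and 400.3 in the others (permutation p = 0.35, adjusted p = 0.56), and 7 of the 10 occupied blocks of 100 numbers held at least 1 of the 10 pigs. Of the 10, 6 had another of the 10 within 10 numbers: livers 1 and 6, livers 3 and 4, and livers 7 and 9. How often 10 pigs drawn from the 150 would lie so close was not tested. No profiled pig was numbered between livers 1 and 6, in which the lower genes mainly had their lowest values. The pig numbered just before liver 7 ranked 16 by the 5-gene mean, whereas the pig numbered between livers 3 and 4 ranked near the bottom of the 150. With blocks of 100 title numbers in the model, 468 probe sets were higher and 201 lower.

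**Figure D5:**
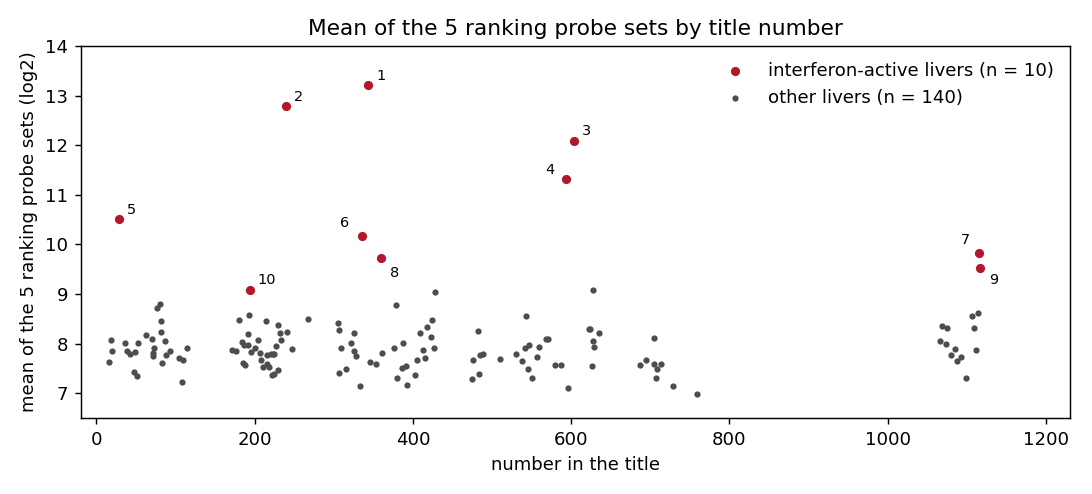
Mean of the 5 ranking probe sets (log2, vertical axis) against the number in each pig's title, with a point for each liver and the rank printed beside the interferon-active ones. The 10 are spread over most of the range, and 6 of them lie within 10 numbers of another.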

How the data were processed

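Total RNA of each liver was labelled with biotin and hybridised to 1 array, per the labels' protocols. As deposited, the values are log2 levels, a scale read from the values themselves. The submitters' processing notes name GCOS 1.1.1; how probes were summarised and normalized is not stated in those sources. A lowest value of 4.09 was shared by 2.75% of entries, so changes near it are understated. Array medians ran from 5.79 to 6.09, and no 2 arrays correlated above 0.989. The number of arrays limits the precision. Each liver came from a separate pig.

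Of 23999 probe sets outside 124 Affymetrix controls, the 5 ranking ones were described and the other 23994 were tested with limma 3.58.1 in R 4.3.3 (lmFit, eBayes with trend, no covariates, two-sided, Benjamini-Hochberg over all 23994). Traits and array measures had permutation tests of 100000 resamples. The fit was tested on simulated data. Names came from the array's annotation, matched by Entrez ID to Sscrofa11.1 for 9961 of 10069 probe sets with 1 symbol; 198 had several and 13732 none, and were left unnamed, and no coordinates are given. In list counts a gene counted once, by its smallest p. The livers, gene lists and tests were chosen with earlier results of these data known. Named genes were the 15 largest rises and 10 largest falls among called genes with a symbol, up to 4 called members (smallest p) per list, any member of the interferon, sensor, ISG15, MHC class I, immunoproteasome and chemokine lists, and the 5 most like the ranking mean; other uncalled members were chosen after their values were seen. Alternatives covered normalization, filters, moderation, scale, threshold, covariates and left-out arrays or livers; covariates for blocks of 100 title numbers and macrophage markers, and list counts without liver 1, were added after seeing the data.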

Additional observations from a re-analysis of the deposited data

Results flagged for a closer look

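Of 83 values checked within the 10 interferon-active livers, 13 had a highest or lowest liver whose gap to the next, as a share of the group's whole range, exceeded Dixon's 95% critical value. That value flags about 1 in 20 groups of independent, normally distributed values. Most items were genes called in these same livers, so that rate need not hold, and the 13 flags are not independent. All 13 were liver 1, whose array correlated least with the others. It was the highest for SLA-7 (share 0.726, 7.89 against 6.35 in the next liver), PSMB10 (0.628, 9.79 against 8.39), MX2 (0.578, 8.55 against 6.89), PSMB4 (0.565, 11.66 against 11.05), CXCL9 (0.56, 12.24 against 9.96), CD2 (0.546, 7.89 against 6.65), IFIT2 (0.529, 11.63 against 8.87) and BLNK (0.524, 7.45 against 6.05). The same held for GBP2 (0.511), PSME2 (0.477) and LYVE1 (0.468). It was the lowest for HSD3B1 (0.641, 6.67 against 9.24) and FMO5 (0.609, 5.73 against 8.70).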

How the results depend on the processing

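Shares here are of the 23994 probe sets. The share of higher probe sets (1.77%) was 1.05% without the arrays that stood apart and 0.859% with 5 principal components as covariates, and ran from 0.967% (without liver 1) to 2.00% when each of the 10 livers was left out. The share of lower ones (0.642%) was 0.204% on normal scores, 0.417% with 1 variance for each group, 0.138% without the arrays that stood apart, 1.09% with the array median as a covariate and 0.179% at an adjusted p under 0.01. It ran from 0.104% (without liver 1) to 0.888% over the left-out livers, and was 0.354%, 0.383% and 0.408% without livers 2, 3 and 6. Positive slopes (78) ran from 56 to 97 over all alternatives. Negative slopes (3) numbered 6 after quantile normalization, 7 with a spline of the title number, 8 with the array median, 5 with the GAPDH and actin differences, 23 with 5 principal components, 14 with macrophage markers, and 1 at an adjusted p under 0.01 or without the 10 highest of the 140. The cause was not tested. The drip loss difference of -0.53 became 0.155 as a difference of medians, and ran from -0.918 to -0.127 over the left-out livers, that of fat area from -2.02 to -0.857 and that of the title number from 23.4 to 144.3. PHGDH turned to 0.00511 with 5 principal components, and IFNG, never called, to 0.00157 with title blocks and to 0.0593 with macrophage markers. Of 71 named called genes, 35 kept their call under every alternative that tested them, and 26 lost it without liver 1. The filter on a mean log2 value of at least 6 tested 57 of the 71, and the filter on an SD above 0.25 tested 69. At an unadjusted p under 0.05, 1352 probe sets were higher and 1386 lower. No paired analysis was possible because each pig gave 1 liver and the groups share no replicate numbers. A probe set near the lowest value has limited room to fall.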
